A study of Mus musculus with 5 samples.

Results

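The genes of glucose uptake and glycolysis were followed through a single-cell RNA sequencing series of mouse epiblast stem cells (EpiSCs) differentiating towards mesoderm. The set holds 31 of the 32285 genes listed in each library. It was chosen by symbol and covers glucose transporters, the enzymes from hexokinase to lactate dehydrogenase, lactate transporters, PFKFB enzymes, and proteins that govern the entry of pyruvate into mitochondria or their removal. The choice used no measured value, but it was made with earlier results of these data known. Aldoa is listed under a pair of identifiers, and the second held 15 UMIs (molecules counted once each by their molecular identifier) in all libraries, so Aldoa here is the first, ENSMUSG00000030695.

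EpiSCs are pluripotent cells cultured from the mouse epiblast, here 1 line of a 129 background derived from an embryo. Cells were kept for 3 days in N2B27 medium with 1 µM of the GSK3 inhibitor CHIR99201 (Chi, an activator of Wnt signaling, spelled as the labels give it) and 8 ng/ml BMP4. Added to this were 0, 0.75, 3 or 12 ng/ml exogenous FGF2, or 30 nM of the FGF receptor inhibitor AZD4547 (FGFRi). The FGF2 dose of the FGFRi culture is not given in the labels, so a difference between FGFRi and 0 ng/ml cannot be assigned to the inhibitor alone.

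There was 1 library per condition. The spread between cultures is therefore unknown, no test between conditions was run, and the intervals below cover counting error only. After removal of barcodes with fewer than 2500 genes or more than 10% mitochondrial UMIs, 10653 cells were retained, between 1696 and 2725 per library. Their median depth lay between 24408 UMIs per cell with FGFRi and 29661.5 at 0 ng/ml, and mitochondrial UMIs made up 4.01% to 4.39%. Among the retained cells, 7 barcodes occurred in more than 1 library. The presomitic mesoderm markers summed to 28.1 CPM (the gene's UMIs scaled to a total of 1000000) with FGFRi and to 145, 319, 617 and 706 CPM with increasing FGF2, and the epithelial markers to 2804 CPM with FGFRi and to 2508, 1845, 1037 and 996 CPM. Krt8 and Krt18 made up most of the epithelial sum with FGFRi (942 and 1350 CPM) and were lower at 0 ng/ml. Cdh1, Epcam, Cldn6 and Cldn7 were instead higher at 0 ng/ml than with FGFRi. The median log2 ratio of the epithelial markers in this pair was 0.14, and none differed by 1.5-fold. All 6 were over 1.5-fold lower at 12 than at 0 ng/ml. The mesenchymal markers, with Vim as the most abundant at FGFRi, summed to 2209 CPM with FGFRi and to 699, 408, 578 and 765 CPM, and all 4 that could be compared (Cdh2, Vim, Fn1 and Twist1) were over 1.5-fold lower at 0 ng/ml than with FGFRi. The part of these marker differences in the results below was not tested. Endoderm markers summed to at most 3.56 CPM and blood markers to at most 0.353 CPM.

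Glycolysis breaks glucose down to pyruvate in the cytosol, and lactate dehydrogenase converts pyruvate to lactate, which regenerates the NAD+ that the pathway consumes. Epiblast cells and presomitic mesoderm are known for high glycolytic activity, and in the elongating embryo FGF signaling and glycolysis have been linked in the tail bud. Several steps have paralogs that are expressed in different tissues, and many of these genes are textbook targets of hypoxia-inducible factor and of MYC.

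Both of those factors bind short motifs, and 4 promoters are shown to let the letters be read beside the levels below. They belong to Ldha and Pgk1, enzymes whose levels were higher at each step of the series, to Hk2, likewise ordered, and to Slc2a1, which was ordered the other way over the FGF2 doses. Each line gives 300 bases 5′ to 3′ on the strand of the gene, from upstream of a RefSeq start site to 50 bases after it (build GRCm38.p6). Capitals mark ACGTG or GCGTG, the core of the hypoxia response element and its common variant, on either strand, so that CACGT and CACGC are the same motifs read on the other strand. Ldha has 2 such windows in RefSeq and the one nearest to the start of its GENCODE gene is shown. The RefSeq start site of that Ldha window still lies 4329 bases from the GENCODE start, inside the gene. This distance is 0 bases for Pgk1 and Hk2 and 34 bases for Slc2a1.
Ldha: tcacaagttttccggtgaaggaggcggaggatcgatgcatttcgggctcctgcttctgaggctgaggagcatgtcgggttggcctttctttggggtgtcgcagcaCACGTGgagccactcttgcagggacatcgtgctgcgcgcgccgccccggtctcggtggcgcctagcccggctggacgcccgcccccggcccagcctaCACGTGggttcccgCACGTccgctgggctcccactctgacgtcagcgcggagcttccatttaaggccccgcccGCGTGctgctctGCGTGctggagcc
Pgk1: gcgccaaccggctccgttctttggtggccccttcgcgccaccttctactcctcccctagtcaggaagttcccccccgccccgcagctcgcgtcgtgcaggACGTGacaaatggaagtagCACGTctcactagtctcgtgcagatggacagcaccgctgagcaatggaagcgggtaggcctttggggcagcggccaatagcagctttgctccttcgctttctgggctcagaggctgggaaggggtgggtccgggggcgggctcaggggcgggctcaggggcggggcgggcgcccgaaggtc
Hk2: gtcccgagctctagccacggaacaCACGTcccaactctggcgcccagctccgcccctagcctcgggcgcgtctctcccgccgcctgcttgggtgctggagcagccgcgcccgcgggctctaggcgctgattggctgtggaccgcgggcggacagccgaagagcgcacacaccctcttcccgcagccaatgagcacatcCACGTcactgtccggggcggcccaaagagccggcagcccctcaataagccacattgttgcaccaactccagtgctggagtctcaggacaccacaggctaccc
Slc2a1: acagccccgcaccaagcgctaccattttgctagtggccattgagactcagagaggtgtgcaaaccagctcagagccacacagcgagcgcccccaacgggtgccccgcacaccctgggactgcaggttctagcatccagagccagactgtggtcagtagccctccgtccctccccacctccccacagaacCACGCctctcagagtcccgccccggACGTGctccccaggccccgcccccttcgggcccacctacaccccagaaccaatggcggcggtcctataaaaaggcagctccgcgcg

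The Ldha window lies at chr7:46845554-46845853 on the + strand, the Pgk1 window at chrX:106186850-106187149 on the + strand, the Hk2 window at chr6:82774405-82774704 on the - strand and the Slc2a1 window at chr4:119108495-119108794 on the + strand. The Ldha window held 7 matches, counted with overlaps and on both strands, and among them were copies of CACGTG, the E-box that MYC recognizes. Pgk1, Hk2 and Slc2a1 held 2 matches each and no CACGTG. RefSeq windows were found for 30 of the 31 genes, and Slc2a3 had none in the table. ACGTG or GCGTG was present for 27 of these 30, or 90%, against 46.7% of all 27025 genes with a window and 71.3% of the 6994 with a window and at least 10 CPM in any library. CACGTG was present for 7 of 30, or 23.3%, against 12.5% of those 6994 genes. Unlike the 6994, the 30 include genes under 10 CPM (Eno2, Pdk2, Pdk4, Pfkfb2 and Pfkfb4). A gene can also have several windows. Counted by window, ACGTG or GCGTG was present in 80.4% of the 46 member windows, against 43.8% of all 32851. For CACGTG these shares were 15.2% and 7.15%. The 4 promoters shown all carried the motif, those of Ldha, Pgk1 and Hk2 as well as that of Slc2a1, which was lower with FGF2. Tpi1 and Gpi1, which were also in ascending order over the FGF2 doses, had windows without it. A match describes letters only.

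Across the 5 libraries the summed level of the glycolytic enzymes was lowest with FGFRi and highest at 12 ng/ml FGF2. The 18 enzymes from hexokinase to lactate dehydrogenase, called the core enzymes here, summed to 5765 CPM with FGFRi. At 0 ng/ml the sum was 7198 CPM, and it was 7641, 9033 and 9684 CPM at 0.75, 3 and 12 ng/ml. Abundant enzymes weigh most in it, and Gapdh alone held 2531 CPM with FGFRi and 3441 CPM at 12 ng/ml. On the log2 scale the sum was higher by 0.32 at 0 ng/ml than with FGFRi, and by 0.43 at 12 than at 0 ng/ml (1.35-fold). A UMI counts a molecule at its 3′ end, so levels of different genes count molecules and do not carry gene length. In such sums, fewer cells that express a gene and less of its RNA per cell cannot be told apart.

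The order was also seen cell by cell. After each cell was thinned to 10000 UMIs, the median cell held 55 core enzyme UMIs with FGFRi and 69, 74, 88 and 93 with increasing FGF2. The lowest 10% of cells lay at or below 37, 40, 45, 58 and 65 UMIs, and the highest 10% at or above 77.9, 99, 104, 121 and 129 UMIs. The whole distribution thus stood higher from library to library, and the distributions of neighboring doses overlapped widely. Thinning left out between 9 and 39 cells per library that were too shallow.

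**Figure D1:**
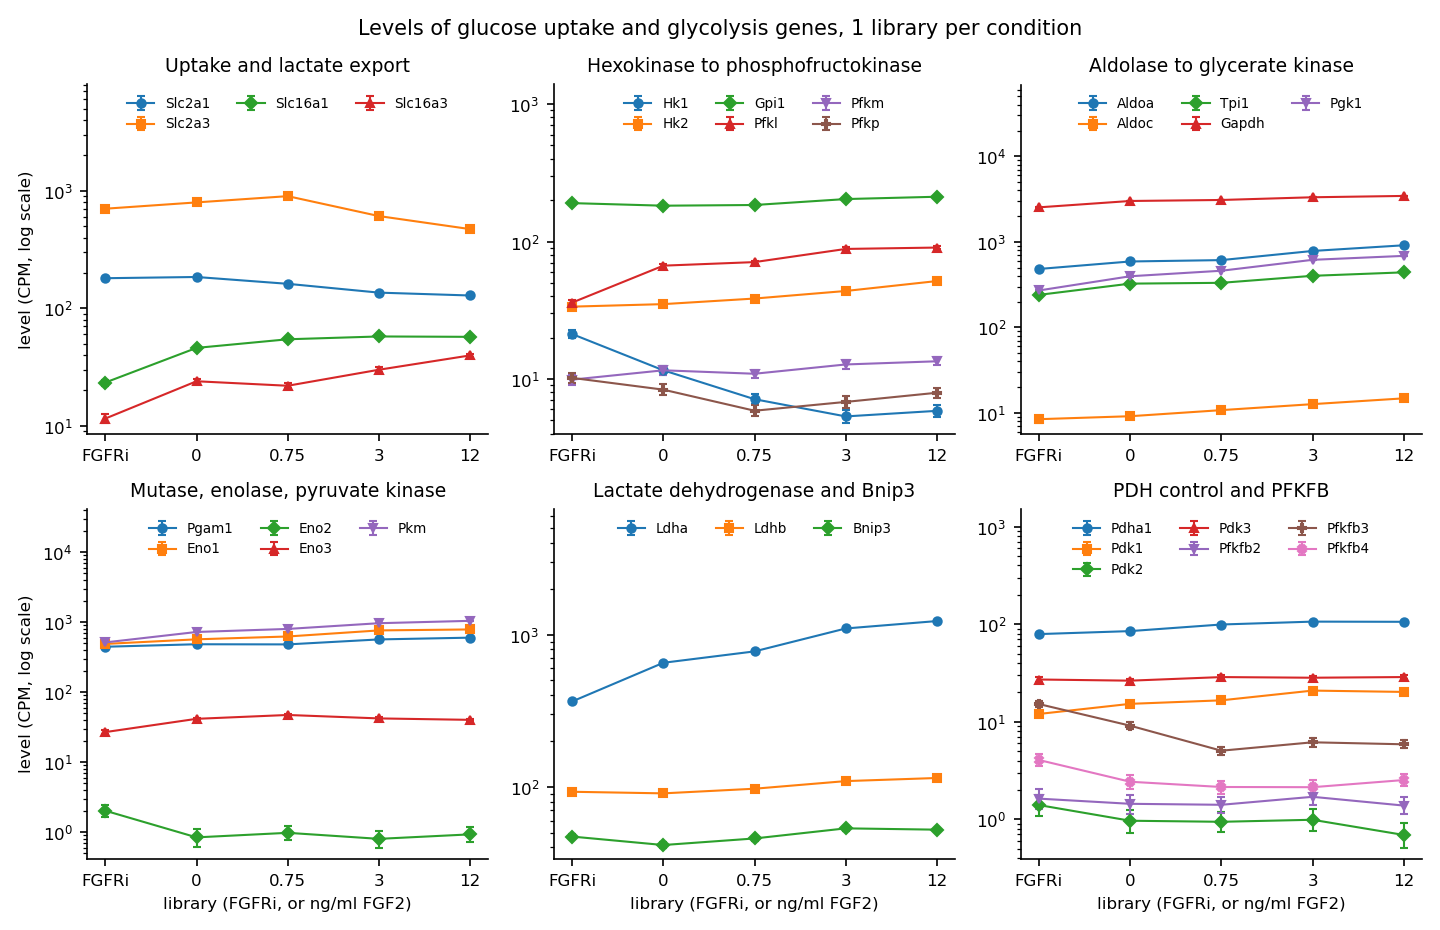
Levels in CPM (log axis) of the members other than Pdk4, which had 0 UMIs in 2 libraries, in the FGFRi library and in the libraries with 0, 0.75, 3 and 12 ng/ml FGF2, grouped by step, with exact Poisson 95% intervals as bars. Many enzymes climb from left to right, for example Ldha from 364 to 1228 CPM, whereas others such as Hk1, Pfkfb3 and the transporter Slc2a1 end lower than they start.

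By level, 26 of the 31 genes reached 10 CPM in any library. The 5 that did not were the neuronal enolase Eno2, the pyruvate dehydrogenase kinases Pdk2 and Pdk4, and Pfkfb2 and Pfkfb4. Of the 26, 10 were higher in each library than in the one before, in the order FGFRi, 0, 0.75, 3 and 12 ng/ml. All 10 were core enzymes: Hk2, Pfkl, Aldoa, Aldoc, Tpi1, Gapdh, Pgk1, Eno1, Pkm and Ldha. Among all genes with at least 10 CPM, 13.3% were ordered in this way. Over the 4 FGF2 doses alone, Gpi1 and Ldhb joined them to make 12 of 26, against 16.3% of all genes, and Slc2a1 was the single member in descending order, against 15.3%. No member was in descending order over all 5 libraries, against 12.1%. Some steps of the ascending orders lay within counting error. From FGFRi to 0 ng/ml the ratio of Hk2 was 1.04 (0.976 to 1.11) and that of Aldoc 1.08 (0.949 to 1.24). From 3 to 12 ng/ml Pfkl had a ratio of 1.02 (0.987 to 1.06). From 0 to 0.75 ng/ml Gpi1 had a ratio of 1.01 (0.987 to 1.04).

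For pairs of libraries, a gene was taken to differ if it had at least 10 CPM in either and a ratio of at least 1.5 in either direction. From FGFRi to 0 ng/ml FGF2, 7 of 25 members passed, against 21.8% of all genes. Higher at 0 ng/ml were 5 of them (9.50% of all genes), Pfkl, Eno3, Ldha, Slc16a1 and Slc16a3, and lower were Hk1 and Pfkfb3 (12.4% of all genes). The single neighboring pair of FGF2 doses with a member past the rule was 0 to 0.75 ng/ml, where Hk1 was lower, 1 of 24 members against 5.39% of all genes in either direction and 4.13% in this one. From 0.75 to 3 ng/ml it was 0 of 23 (3.26% of all genes), and from 3 to 12 ng/ml 0 of 23 (0.946%). Apart from Hk1, members with at least 10 CPM thus stayed under 1.5-fold between neighboring doses, though some came close. From 0.75 to 3 ng/ml, Slc2a3 was 1.48-fold lower and Ldha 1.41-fold higher. Pfkfb3 was 1.80-fold lower at 0.75 than at 0 ng/ml but under 10 CPM in both. Between 0 and 12 ng/ml, 7 of 24 passed, against 13.0% of all genes. Aldoa, Aldoc, Pgk1, Ldha and Slc16a3 were higher at 12 ng/ml (5 members, against 4.10% of all genes), and Slc2a3 and Hk1 were lower (2 members, against 8.85%).

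Smaller differences had mostly the same direction. Between 0 and 12 ng/ml, 20 of the 24 members were higher by any amount and 4 were lower, and their median log2 ratio was 0.34 against 0.01 over all genes. From FGFRi to 0 ng/ml the median was 0.22 against 0.00, and for 0 to 0.75, 0.75 to 3 and 3 to 12 ng/ml it was 0.12, 0.22 and 0.06, against 0.00, 0.02 and -0.00. The members are few and share the same libraries, so these medians describe the list and carry no test.

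**Figure D2:**
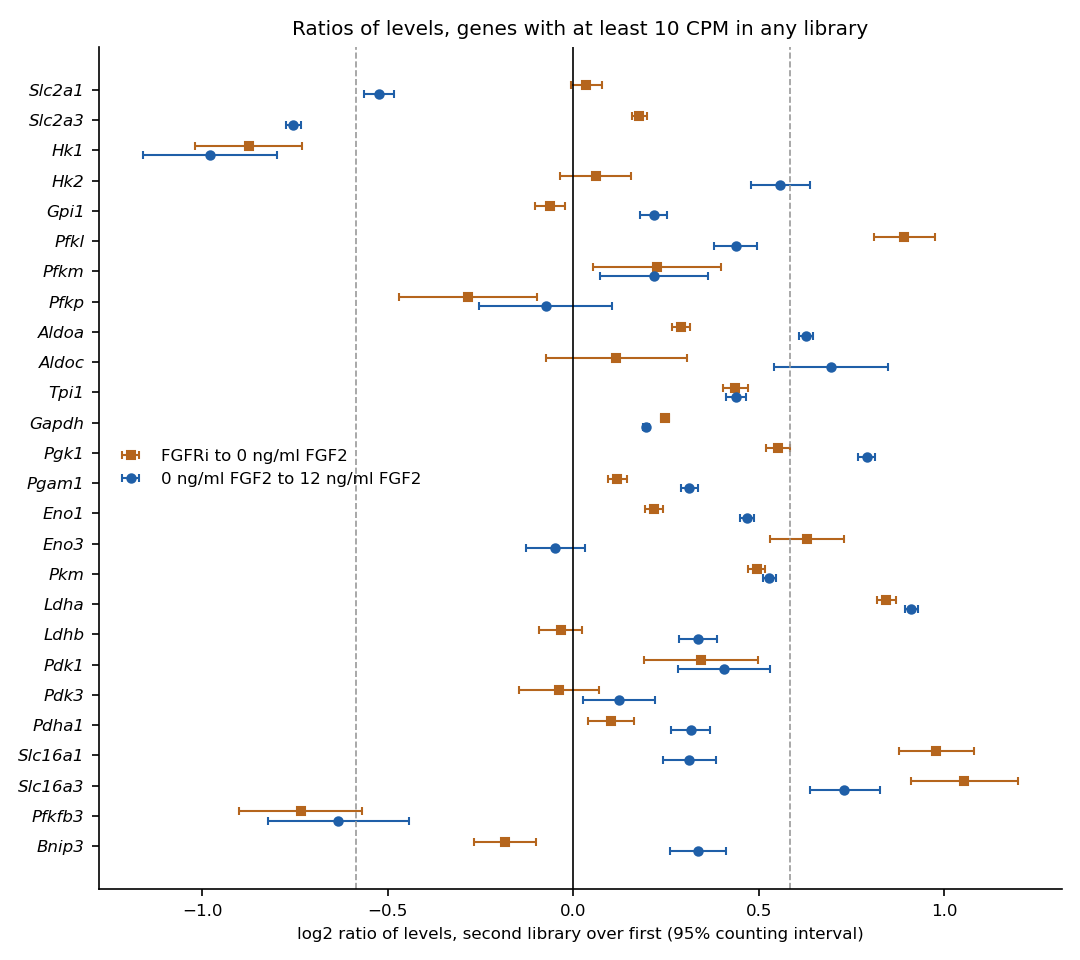
Log2 ratios of levels for the 26 genes with at least 10 CPM in any library, from FGFRi to 0 ng/ml FGF2 (squares) and from 0 to 12 ng/ml FGF2 (circles), with exact conditional 95% intervals of counting error, and dashed lines at a ratio of 1.5. The 2 comparisons share the 0 ng/ml library; Ldha and Slc16a3 lie to the right of the line in both, and Hk1 and Pfkfb3 lie to the left in both, although Pfkfb3 was under 10 CPM at both 0 and 12 ng/ml.

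The glucose transporters differed from the enzymes. Slc2a1 (GLUT1), the widely expressed transporter, stood at 180 CPM with FGFRi and at 185, 161, 136 and 128 CPM with increasing FGF2. Slc2a3 (GLUT3), a high-affinity transporter of early embryos and neurons, stood at 704, 796, 900, 609 and 472 CPM in the same order. It thus had its highest level at 0.75 ng/ml and its lowest at 12 ng/ml. Slc2a3 was 1.69-fold lower at 12 than at 0 ng/ml (1.66 to 1.71) and Slc2a1 1.44-fold lower (1.40 to 1.48). Slc2a3 gave between 78.6% and 84.8% of the UMIs of both transporters in each library. In cells thinned to 10000 UMIs, 90.1% of those without FGF2 held a UMI of Slc2a3, against 66.5% of those at 12 ng/ml (95.3% and 81.2% without thinning). No cell class here is known to lack these genes, so the share of cells with a UMI that free RNA alone gives was not measured.

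Hexokinase traps glucose in the cell by phosphorylation, and here its paralogs went in opposite directions. Hk1, the housekeeping form, stood at 21.2 CPM with FGFRi and at 11.6, 7.13, 5.34 and 5.86 CPM along the doses. Hk2, the inducible form, stood at 33.6, 35.0, 38.5, 43.7 and 51.6 CPM. Hk1 was 3.62-fold higher with FGFRi than at 12 ng/ml (3.23 to 4.07), and the intervals of 3 and 12 ng/ml overlapped. Both genes together summed to between 45.6 and 57.4 CPM, a narrower range than that of either, while the share of Hk1 among hexokinase UMIs was 38.7% with FGFRi and 24.8%, 15.6%, 10.9% and 10.2% along the doses.

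Glucose phosphate isomerase, Gpi1, varied little, from a low of 182 CPM without FGF2 to 212 CPM at its highest dose. Phosphofructokinase commits the sugar to glycolysis, and its liver form Pfkl stood at 36.0 CPM with FGFRi and at 66.8, 70.9, 88.3 and 90.4 CPM with the FGF2 doses. Its largest step was therefore from FGFRi to 0 ng/ml, 1.86-fold (1.75 to 1.97). The muscle form Pfkm lay between 9.89 and 13.5 CPM and the platelet form Pfkp between 5.87 and 10.2 CPM. The share of Pfkl among phosphofructokinase UMIs was 64.2% with FGFRi and between 77.0% and 81.9% in the other libraries.

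PFKFB enzymes set the level of fructose-2,6-bisphosphate, which activates phosphofructokinase. Pfkfb3, the form with the strongest kinase activity, stood at 15.2 CPM with FGFRi and at 9.12, 5.05, 6.16 and 5.88 CPM along the doses. It was lowest at 0.75 ng/ml and 2.58-fold higher with FGFRi than at 12 ng/ml (2.29 to 2.92). Pfkfb4 (2.14 to 4.06 CPM) and Pfkfb2 (1.38 to 1.70 CPM) were near the floor of what could be compared.

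In the later steps of the pathway most genes followed the order of the core sum. Aldoa, the main aldolase, which splits the sugar into triose phosphates, stood at 482, 590, 612, 783 and 912 CPM. Aldoc, a form best known from brain, followed at 8.47, 9.17, 10.8, 12.7 and 14.8 CPM. Triose phosphate isomerase, Tpi1, stood at 240, 325, 332, 401 and 440 CPM. Aldoa was 1.55-fold higher at 12 than at 0 ng/ml (1.53 to 1.57) and Aldoc 1.62-fold higher (1.46 to 1.80), both just past the ratio of 1.5, with an interval for Aldoc that reached below it.

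Gapdh, which makes NADH and is often used as a reference gene, was the most abundant member. It stood at 2531 CPM with FGFRi and at 3004, 3086, 3320 and 3441 CPM along the doses, a 1.15-fold difference from 0 to 12 ng/ml (1.14 to 1.15). Pgk1, which makes the first ATP of the pathway, stood at 270, 396, 460, 617 and 686 CPM. Pgk1 was 1.73-fold higher at 12 than at 0 ng/ml (1.70 to 1.76) and 2.54-fold higher than with FGFRi (2.49 to 2.59). Pgam1, a mutase, lay between 445 and 599 CPM.

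Enolase and pyruvate kinase close the pathway. Eno1, the ubiquitous enolase, stood at 488, 567, 623, 761 and 785 CPM. A near-identical processed copy, Eno1b, drew between 19.6 and 31.7 CPM, and reads that fit both were dropped by the counting, so the Eno1 level is a lower estimate. Eno3, the muscle enolase, had another pattern, with 26.9 CPM with FGFRi and 41.6, 47.2, 42.2 and 40.2 CPM along the doses. Pyruvate kinase, Pkm, stood at 513, 722, 798, 964 and 1042 CPM, and its M1 and M2 splice forms cannot be told apart from 3′ UMIs.

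Among the core enzymes that were higher at 12 than at 0 ng/ml FGF2, lactate dehydrogenase A had the largest ratio. Ldha, the form that favors lactate production, stood at 364 CPM with FGFRi and at 653, 776, 1098 and 1228 CPM from 0 to 12 ng/ml. It was 1.80-fold higher at 0 ng/ml than with FGFRi (1.76 to 1.83), 1.88-fold higher at 12 than at 0 ng/ml (1.86 to 1.90) and 3.37-fold higher at 12 ng/ml than with FGFRi (3.32 to 3.43). Ldhb, the form of oxidative tissues such as heart, lay between 90.6 and 114 CPM. The share of Ldha among lactate dehydrogenase UMIs was accordingly 79.7%, 87.8%, 88.9%, 91.0% and 91.5%.

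The exporters of lactate differed in a similar way between FGFRi and the other libraries. Slc16a1 (MCT1), a widely expressed monocarboxylate transporter, stood at 23.3 CPM with FGFRi and at 46.0, 54.5, 57.5 and 57.1 CPM along the doses. Slc16a3 (MCT4), the low-affinity exporter of glycolytic cells, stood at 11.5, 23.9, 21.9, 30.0 and 39.7 CPM. Slc16a1 was thus level from 0.75 ng/ml upwards, whereas Slc16a3 was still 1.32-fold higher at 12 than at 3 ng/ml (log2 ratio 0.41, interval 0.32 to 0.49). The share of thinned cells with a UMI of Slc16a3 was 8.18% with FGFRi and 15.4%, 15.3%, 19.7% and 25.7% along the doses (18.5%, 30.8%, 31.1%, 41.2% and 48.9% without thinning).

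**Figure D3:**
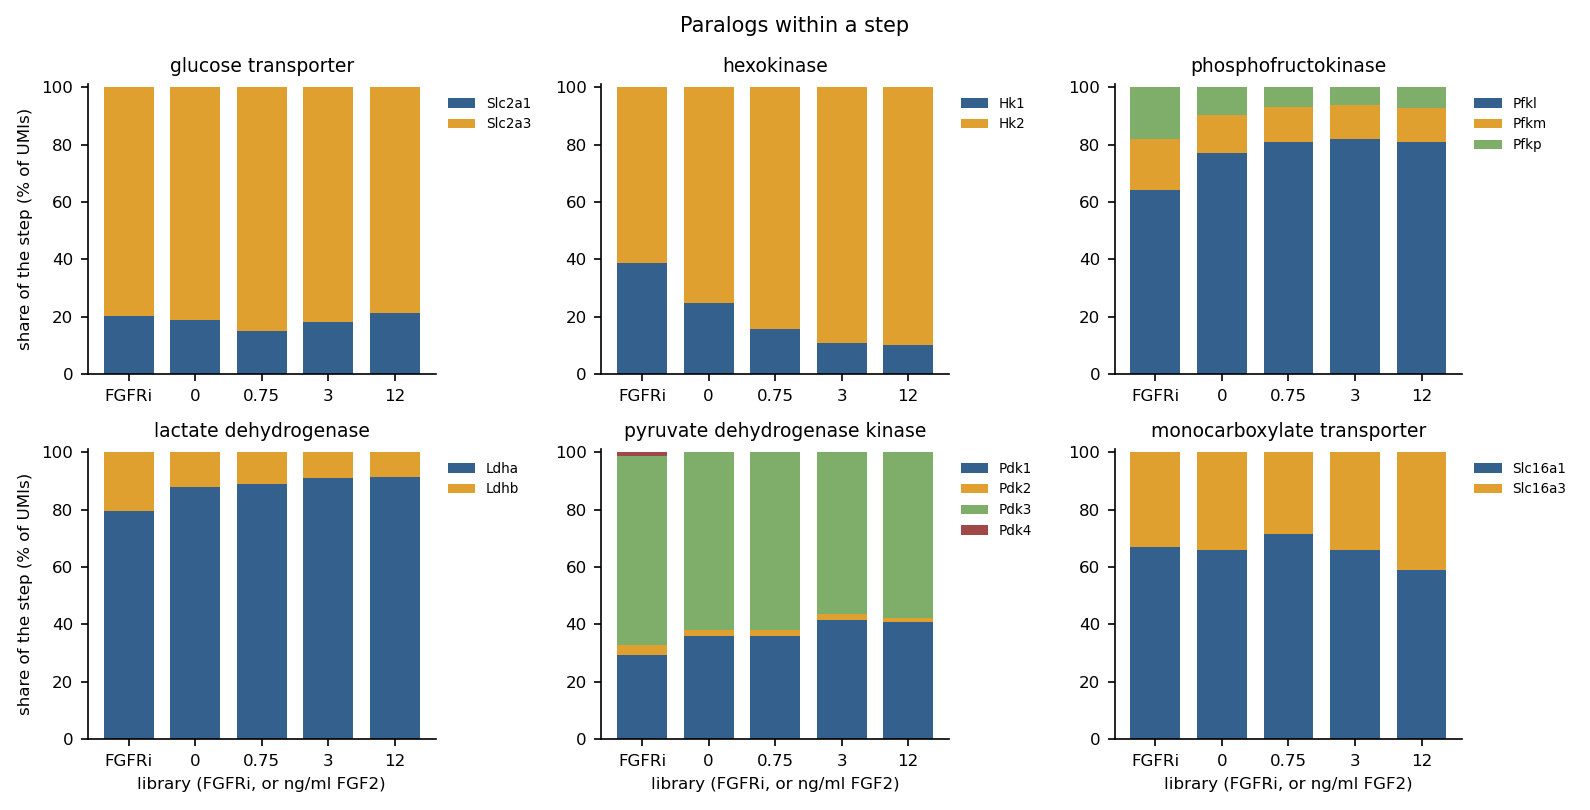
Stacked shares (% of UMIs of the step) of paralogs at 6 steps in the 5 libraries. Hk1 shrinks from 38.7% of hexokinase UMIs with FGFRi to 10.2% at 12 ng/ml FGF2, and Ldhb from 20.3% to 8.52% of lactate dehydrogenase UMIs, while the glucose transporters keep nearly the same proportions.

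The members that govern pyruvate dehydrogenase or the removal of mitochondria did not pass the rule of size in any of the 5 pairs counted above. Of all genes, between 0.946% and 21.8% passed in these pairs. Pdha1, a subunit of pyruvate dehydrogenase, stood at 79.1, 84.9, 99.2, 106 and 106 CPM. Pdk1, a kinase that inhibits pyruvate dehydrogenase, stood at 12.0, 15.3, 16.6, 20.9 and 20.2 CPM. Between FGFRi and 12 ng/ml, a pair not among those counted, Pdk1 was 1.68-fold higher at 12 ng/ml (1.53 to 1.86). Pdk3, a further such kinase, lay between 26.4 and 28.7 CPM in all libraries. Pdk4, a kinase of fasting and fat oxidation, was barely detected, with 27 UMIs under FGFRi, 1 without FGF2, 3 at the highest dose and 0 at 0.75 and 3 ng/ml, where 0 UMIs allow at most 0.0452 and 0.0571 CPM. Bnip3, a hypoxia-induced receptor for the removal of mitochondria, lay between 41.5 and 53.4 CPM.

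Other genes of carbon metabolism were examined as lists. None of the 17 citric acid cycle genes and none of the 6 pentose phosphate pathway genes with at least 10 CPM passed the rule of size in any of the 5 pairs counted above. Of all genes, 21.8% passed from FGFRi to 0 ng/ml and 13.0% from 0 to 12 ng/ml. Between neighboring FGF2 doses 5.39%, 3.26% and 0.946% passed, so few genes of such short lists would be called there. The pair of FGFRi and 12 ng/ml was not counted for these lists, and in it Idh3g, a subunit of isocitrate dehydrogenase, stood at 49.7 and 77.2 CPM. The citric acid cycle genes summed to between 1525 and 1633 CPM in all libraries, a narrow range beside that of the core enzymes. Of 9 genes for pyruvate dehydrogenase and pyruvate import, 7 had at least 10 CPM with FGFRi or at 0 ng/ml. Of these 7, 3 were lower at 0 ng/ml than with FGFRi (Pdp1, Mpc1 and Mpc2), against 12.4% of all genes. None passed in the other 4 of these pairs. Mpc2, a subunit of the mitochondrial pyruvate carrier, stood at 109 CPM with FGFRi and at 62.7, 49.4, 43.8 and 46.5 CPM along the doses. Of 23 further members of the same gene families, 4 had at least 10 CPM and none passed in these 5 pairs, while Adpgk, a glucokinase that uses ADP, stood at 15.6 and 28.0 CPM in the FGFRi and 12 ng/ml libraries, and Tigar, a phosphatase that lowers fructose-2,6-bisphosphate, at 12.2 and 6.13 CPM. In a list of 13 genes for gluconeogenesis and glycogen, the median log2 ratio was -0.25 from FGFRi to 0 ng/ml and -0.08 from 0 to 12 ng/ml. The phosphoglucomutases Pgm1 (16.1 CPM at 0 ng/ml) and Pgm2 (11.4 CPM) were lower without FGF2 than with FGFRi, and the glycogen phosphorylase Pygb (13.7 to 6.64 CPM) was lower at 12 than at 0 ng/ml. Pck2, which makes phosphoenolpyruvate in mitochondria, stood at 10.7, 21.2, 26.3, 40.8 and 49.4 CPM, in ascending order. It passed the rule from FGFRi to 0, from 0.75 to 3 and from 0 to 12 ng/ml.

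Genes of the hypoxia response were, by their median, lower from FGFRi to 0 and from 0 to 0.75 ng/ml (log2 ratios -0.16 and -0.11), and higher from 0.75 to 3 and from 3 to 12 ng/ml (0.13 and 0.09). Of 22 such genes that are no members, 17 had at least 10 CPM at 0 or 12 ng/ml. At 12 ng/ml, 1 of these 17 was higher (Stc2, against 4.10% of all genes) and 1 lower (Ndrg1, against 8.85%). Ndrg1 was also the 1 gene of the list past the rule from 0 to 0.75 ng/ml and from 0.75 to 3 ng/ml, lower each time. In either direction, 5.39% and 3.26% of all genes passed in these 2 pairs. From FGFRi to 0 ng/ml, P4ha1, Ddit4 and Epas1 were lower, 3 of 17 against 12.4% of all genes. None was higher, against 9.50% of all genes. The list summed to 950 CPM with FGFRi and to 878, 847, 945 and 1001 CPM along the doses. Its median log2 ratio from 0 to 12 ng/ml was 0.21, against 0.34 for the members and 0.01 for all genes.

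Levels were next compared within libraries, between cells with and without a UMI of Tbx6, a transcription factor of presomitic mesoderm. Tbx6-positive cells numbered 135, 437, 767 and 1196 with increasing FGF2, and the 11 with FGFRi were too few to be used. Their median depth lay between 27499.5 and 32264 UMIs per cell, against 27386.5 to 29342 in the other cells. The other 5 presomitic mesoderm markers were higher in them and all 6 epithelial markers were lower, by the test described next. UMIs were summed per library and class and compared with edgeR's quasi-likelihood test with library as a block. The 4 libraries are at different doses, so the test asks for a difference shared over doses.

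The core sum was higher in Tbx6-positive cells in each of the 4 libraries, and the excess was smaller at higher doses. It was 8483, 8538, 9544 and 9956 CPM in Tbx6-positive cells, from 0 to 12 ng/ml, against 7081, 7467, 8734 and 9421 CPM in the other cells. Other cells at 12 ng/ml thus had a higher core sum than Tbx6-positive cells at 0 or 0.75 ng/ml. Both classes rest on the detection of single UMIs, so the other cells can include cells that express Tbx6. At 12 ng/ml, 49.7% of cells held a UMI of Tbx6, against 31.7% of thinned cells. The part of such undetected cells in the core sum of the other cells, and in the smaller excess at higher doses, was not tested.

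Of 30 members tested, 13 passed an adjusted p of 0.05, against 41.5% of all 14347 genes, so that the share of members called was close to that of all genes. Higher in Tbx6-positive cells were 8 enzymes (18.6% of all genes): Hk2, Pfkl, Pfkm, Aldoa, Pgk1, Pgam1, Pkm and Ldha. Lower were 5 members (23.0% of all genes), both glucose transporters, Hk1, Eno3 and Ldhb. The median log2 difference was 0.04 over members and -0.01 over all genes.

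Ldha had the largest positive difference. It stood at 1159, 1139, 1341 and 1428 CPM in Tbx6-positive cells along the doses, against 607, 705, 956 and 1034 CPM in the other cells. The log2 difference was 0.64 ± 0.07 (SE; adjusted p = 0.00052, edgeR's quasi-likelihood test with Benjamini-Hochberg adjustment, 4 libraries). The groups did not overlap, and the lowest Tbx6-positive value lay above the highest of the other cells. Hk2 differed by 0.37 ± 0.06 (adjusted p = 0.0029), Aldoa by 0.36 ± 0.03 (adjusted p = 0.000234) and Pkm by 0.26 ± 0.04 (adjusted p = 0.00167).

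Slc2a3 had the largest difference of all members, in the other direction. Tbx6-positive cells held 197, 347, 246 and 153 CPM along the doses, and the other cells 851, 1007, 821 and 781 CPM. This was a log2 difference of -1.93 ± 0.13, or 3.81-fold lower in Tbx6-positive cells (adjusted p = 0.000119, edgeR). Slc2a1 stood at 89.7, 87.0, 78.1 and 70.9 CPM against 193, 176, 170 and 184 CPM, 2.23-fold lower (log2 difference -1.16 ± 0.06, adjusted p = 8.08e-05, edgeR). For both transporters all 4 Tbx6-positive values lay below all 4 others. Hk1 was also lower, by a log2 difference of -0.92 ± 0.13 (adjusted p = 0.00192), and so was Eno3, by -0.38 ± 0.06 (adjusted p = 0.00337). As a class, Tbx6-positive cells thus held more mRNA of these 8 enzymes and less mRNA of both glucose transporters. Whether this also held from cell to cell was not tested.

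**Figure D4:**
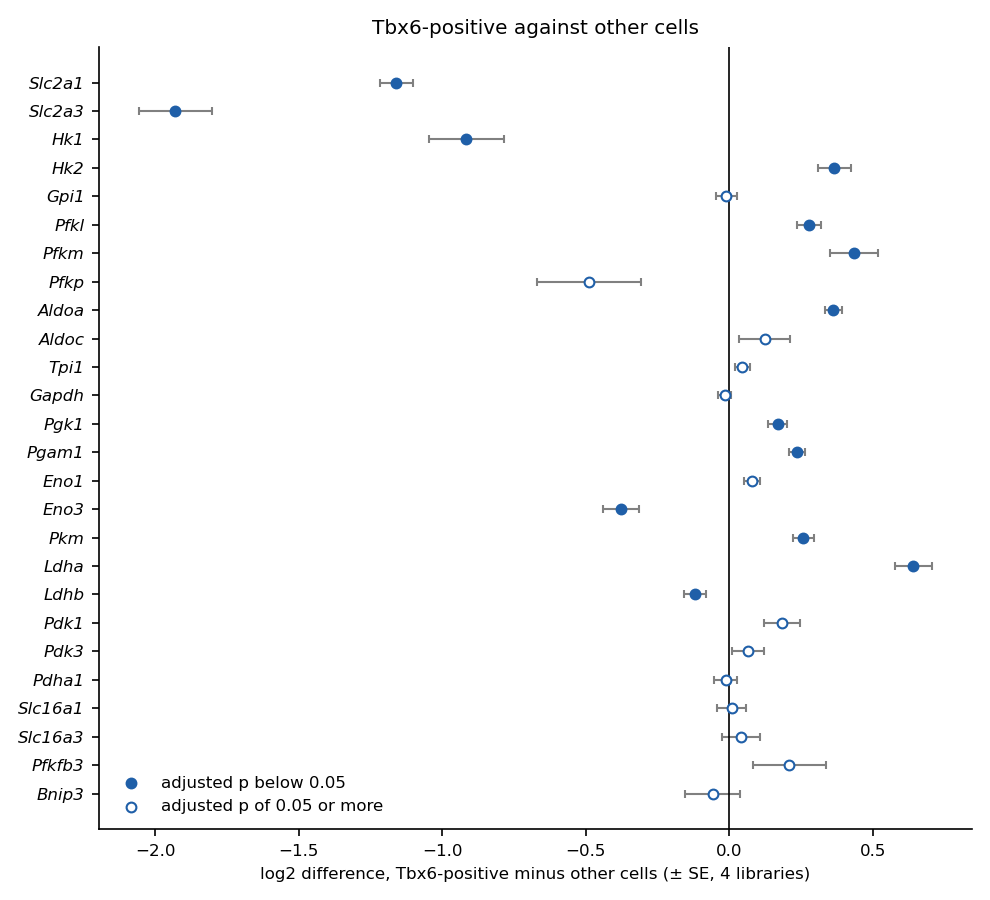
Log2 differences between Tbx6-positive and other cells (± SE over 4 libraries, edgeR) for the 26 genes with at least 10 CPM in any library. Filled points have an adjusted p below 0.05; Ldha lies farthest to the right at 0.64, and Slc2a3 farthest to the left at -1.93.

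Members that did not pass included Gapdh (log2 difference -0.02 ± 0.02, adjusted p = 0.594), Slc16a1 (0.01 ± 0.05, adjusted p = 0.923) and Slc16a3 (0.04 ± 0.07, adjusted p = 0.67, all by edgeR). The lactate exporters, which differed about 2-fold between FGFRi and 0 ng/ml, thus had nearly equal levels in both classes. Tbx6 lies at chr7:126781483-126785560 and Aldoa at chr7:126795234-126800751 (GRCm38), 9673 bases apart. In the same test, 7 of 17 citric acid cycle genes were higher and 2 lower in Tbx6-positive cells, 3 of 7 pentose phosphate pathway genes were higher and 1 lower, and of 21 hypoxia response genes 7 were higher and 5 lower. Of all genes, 18.6% were higher and 23.0% lower. Each of these lists, like the members, thus held genes called in both directions. The median log2 differences of the 3 lists were 0.10, 0.13 and 0.06 in the same order. They were 0.04 for the members and -0.01 for all genes, so a positive median was not particular to the members.

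A second division used the cadherins, because it gives large classes in every library. Cells with a UMI of Cdh1 (E-cadherin, of epithelia) and none of Cdh2 are called Cdh1-only, and those with Cdh2 (N-cadherin, of mesenchyme and neural tissue) and no Cdh1 UMI Cdh2-only. Cdh1-only cells made up 36.3% of cells with FGFRi and 43.3%, 38.7%, 20.8% and 14.1% along the doses, and Cdh2-only cells 36.7%, 28.7%, 38.8%, 53.9% and 58.7%. The median depth of the classes lay between 23608 and 29153 UMIs per cell. The classes rest on the detection of single UMIs, and many Tbx6-positive cells are Cdh2-only cells, so this comparison is not independent of the one above. Apart from the cadherins, all 5 epithelial markers were higher in Cdh1-only cells and 4 of 5 mesenchymal markers higher in Cdh2-only cells.

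Of 30 members tested, 12 passed, against 49.2% of all 13405 genes. Higher in Cdh1-only cells were 4 members (24.7% of all genes), Slc2a1, Slc2a3, Hk1 and Pdha1. Lower were 8 (24.6% of all genes), Hk2, Pfkm, Aldoa, Pgk1, Pgam1, Eno1, Pkm and Ldha. The median log2 difference was -0.13 over members and -0.01 over all genes. With the libraries not paired, the count was 5, against 23.2% of all genes: the transporters, Hk2, Pfkm and Pgam1. Without the FGFRi library it was 16 of 30, against 58.0% of all genes.

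The levels of both transporters did not overlap between the cadherin classes. Slc2a3 stood at 1320, 1097, 1438, 1403 and 1406 CPM in Cdh1-only cells and at 179, 334, 354, 256 and 165 CPM in Cdh2-only cells, 5.36-fold higher in the former (log2 difference 2.42 ± 0.21, adjusted p = 0.000394, edgeR). Slc2a1 stood at 265, 245, 235, 229 and 254 CPM against 96.3, 79.4, 74.7, 81.0 and 66.5 CPM, 3.09-fold higher (log2 difference 1.63 ± 0.08, adjusted p = 5.32e-05, edgeR). In thinned cells, 97.9% of Cdh1-only cells and 50.8% of Cdh2-only cells held a UMI of Slc2a3 at 12 ng/ml.

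The lower transporter level of whole libraries at high FGF2 did not appear in Cdh1-only cells. At 12 ng/ml, Slc2a3 was 1.28-fold higher than at 0 ng/ml in Cdh1-only cells (1.26 to 1.31), whereas it was at 0.496 of its level in Cdh2-only cells (0.478 to 0.515). Slc2a1 had a ratio of 1.04 in Cdh1-only cells (0.988 to 1.08) and of 0.837 in Cdh2-only cells (0.782 to 0.897). The share of Cdh1-only cells was also lower at the higher doses, as given above, and its part in the level of the whole library was not tested.

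Eno3 and Bnip3 also had opposite ratios in the 2 classes. Eno3 stood at 33.4, 41.6, 44.7 and 57.9 CPM along the doses in Cdh1-only cells and at 54.5, 50.1, 40.5 and 34.3 CPM in Cdh2-only cells. The nearly level Eno3 of whole libraries from 0 to 12 ng/ml thus held a ratio of 1.73 in Cdh1-only cells (1.56 to 1.93) and of 0.628 in Cdh2-only cells (0.576 to 0.686). Bnip3 had a ratio of 0.877 in Cdh1-only cells (0.782 to 0.981) and of 1.68 in Cdh2-only cells (1.52 to 1.86). These ratios compare single libraries.

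**Figure D5:**
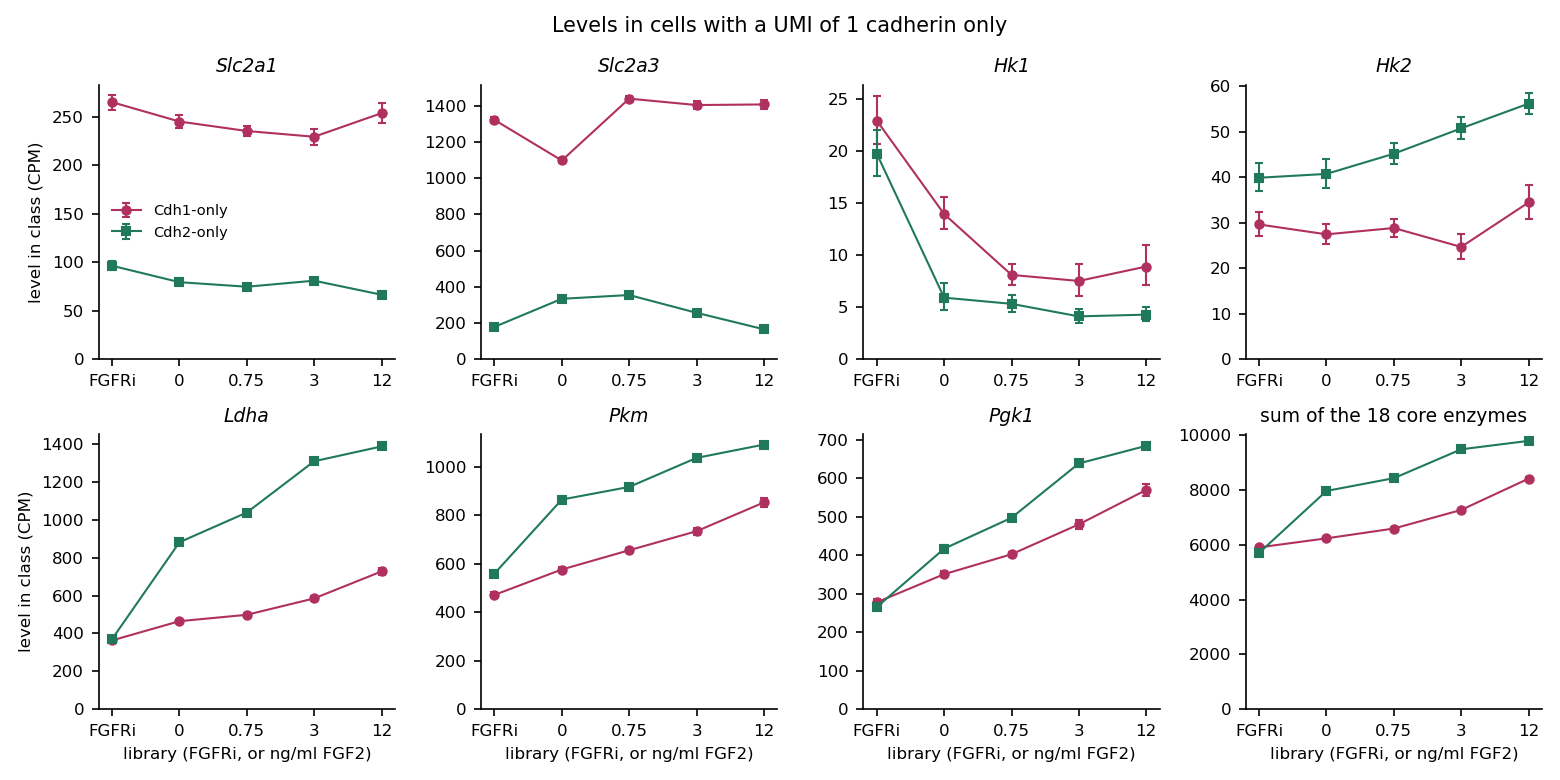
Levels in CPM (linear axis from 0, exact Poisson 95% intervals) of 7 genes and of the sum of the 18 core enzymes in Cdh1-only and Cdh2-only cells of each library. The transporters Slc2a1 and Slc2a3 are higher in Cdh1-only cells throughout, while Ldha is near 363 and 371 CPM in both classes with FGFRi and higher in Cdh2-only cells at each FGF2 dose.

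Ldha was ordered by dose within both classes. It stood at 363, 465, 499, 586 and 728 CPM in Cdh1-only cells, from FGFRi to 12 ng/ml. In Cdh2-only cells it stood at 371, 883, 1040, 1311 and 1390 CPM. The ratio from 0 to 12 ng/ml was 1.57 in both, whereas from FGFRi to 0 ng/ml it was 1.28 in Cdh1-only cells (1.24 to 1.32) and 2.38 in Cdh2-only cells (2.31 to 2.45). The intervals of the classes overlapped with FGFRi and lay apart in all other libraries, a difference between libraries that was not tested.

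The core sum was slightly higher in Cdh1-only cells (5905 CPM) than in Cdh2-only cells (5706 CPM) with FGFRi, and lower in Cdh1-only cells in the other libraries. From 0 to 12 ng/ml FGF2 it was 6235, 6593, 7272 and 8415 CPM in Cdh1-only cells, against 7967, 8431, 9486 and 9795 CPM in Cdh2-only cells. At 12 ng/ml it was 1.35-fold that at 0 ng/ml in Cdh1-only cells (1.34 to 1.36) and 1.23-fold in Cdh2-only cells (1.22 to 1.24). Members in strictly ascending order over all 5 libraries numbered 7 of 26 within Cdh1-only cells, against 8.80% of all genes, and 12 of 26 within Cdh2-only cells, against 7.16%. Pgk1, Pkm, Ldha and Slc16a3 were in both sets.

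Hk1 and Hk2 differed between the classes in opposite directions too. Hk1 stood at 22.9, 13.9, 8.09, 7.51 and 8.89 CPM in Cdh1-only cells and at 19.7, 5.91, 5.31, 4.11 and 4.28 CPM in Cdh2-only cells (log2 difference 0.77 ± 0.16, adjusted p = 0.00861, edgeR). Hk2 stood at 29.6, 27.5, 28.8, 24.7 and 34.5 CPM against 39.9, 40.7, 45.2, 50.8 and 56.2 CPM (log2 difference -0.69 ± 0.08, adjusted p = 0.00123, edgeR). Hk1 was highest with FGFRi in both classes, and Hk2 was in ascending order in Cdh2-only cells but not in Cdh1-only cells. Pfkl, which did not pass the test over all libraries (adjusted p = 0.315, edgeR), stood at 47.0 against 27.5 CPM with FGFRi and at 60.7 against 76.2 CPM at 0 ng/ml, in Cdh1-only and Cdh2-only cells.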

How the data were processed

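Single-cell RNA was measured with 10x Genomics 3′ chemistry in 5 libraries. The authors deposited raw counts, whole-number UMI counts per gene and barcode that Cell Ranger called a cell (version 5.0.1 by the matrix header, an older release by the methods), aligned to mm10 with the 10x reference. Cell Ranger drops reads that map to several genes. No cell filter had been applied to the files. Cells with at least 2500 genes and at most 10% mitochondrial UMIs were retained, as in the methods, with no doublet filter.

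UMIs were summed over the retained cells and divided by their total to give CPM. Exact Poisson intervals (95%) were computed for levels, exact conditional intervals for ratios and exact binomial intervals for shares. With 1 library per condition, a fixed rule of size (at least 10 CPM in either library, ratio of at least 1.5) took the place of a test. PCR duplicates are removed by the UMIs, and these intervals cover counting error only. For shares of cells and core UMIs per cell, cells were thinned to 10000 UMIs.

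Cell classes were summed per library (at least 50 cells per class) and tested with edgeR 4.0.16 in R 4.3.3 (TMM, filterByExpr, glmQLFit and glmQLFTest, library as a block because both sums come from 1 culture), with Benjamini-Hochberg adjustment over all genes tested and calls at 0.05. SE is the log2 difference divided by the square root of F. With the block, the p-values rest on how much the difference between classes varied over libraries at different doses. Differences in level between libraries do not enter them, and the spread between cultures of the same dose is not measured. In simulated counts for the Tbx6 comparison (14383 genes), 86 of 100 genes changed 1.5-fold and 99 of 100 changed 2-fold were recovered, with 8 false calls. For the cadherin comparison (13475 genes) these were 97 and 100 of 100, with 8 false calls. The simulated counts had the same dispersion for every gene, and only genes above a minimum mean count were changed. Recovery among genes of lower count or wider spread in the real data was not measured. DESeq2 1.42.0 was an alternative. Other tools were Python 3.11.15, NumPy 2.4.6, SciPy 1.17.1, pandas 2.3.3 and Matplotlib 3.10.9.

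Gene positions came from GENCODE vM21 (GRCm38), in which 32158 of 32285 identifiers matched, and promoter windows from RefSeq (GRCm38.p6, 32851 windows). By rule the text names all 31 genes and, from the other lists, up to 3 genes each that passed the rule of size between neighboring libraries. Outside it, 1 more hypoxia gene, Stc2, Pygb, Idh3g, Adpgk, Tigar and the marker genes were chosen after their values were seen. Members, lists, classes and tests were chosen with earlier results of these data known.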

Additional observations from a re-analysis of the deposited data

How the results depend on the processing

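The counts of members past the rule of size did not change by 1.5 times or more when libraries were scaled by TMM factors or by totals without mitochondrial UMIs, when cells were weighted equally, or under either other cell filter. They depended on the rule's own limits. With a ratio of at least 2 the counts were 1 for FGFRi to 0 ng/ml, 0 for 0 to 0.75 ng/ml and 0 for 0 to 12 ng/ml. Of all genes, 7.99%, 1.72% and 5.91% passed in these pairs. A ratio of at least 5:4 gave 11 of 25 for FGFRi to 0 ng/ml, close to the 45.2% of all genes. It gave 6 of 23 for 0.75 to 3 ng/ml (9.15% of all genes) and 2 of 23 for 3 to 12 ng/ml (3.61%). For 0 to 12 ng/ml it gave 16 of 24 (28.4%). A minimum of 50 CPM gave 2, 0 and 4 for FGFRi to 0, 0 to 0.75 and 0 to 12 ng/ml. The shares of all genes were 20.1%, 4.34% and 9.61%. No minimum gave 2 for 0 to 0.75 ng/ml, against 21.7% of all genes.

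The core sum kept its direction in every pair under all 5 alternatives. Its log2 ratio from FGFRi to 0 ng/ml was 0.32, and 0.33 with TMM factors, 0.31 with at most 5% mitochondrial UMIs, 0.34 with no cell filter and 0.30 with equal weight per cell. From 0 to 0.75 ng/ml (0.086) it was 0.075 with at most 5% mitochondrial UMIs and 0.098 with equal weight, from 0.75 to 3 ng/ml (0.24) 0.23 with TMM and 0.26 with equal weight, and from 3 to 12 ng/ml (0.10) 0.11 with TMM. From 0 to 12 ng/ml (0.43) it was 0.41 with TMM, 0.42 with at most 5% mitochondrial UMIs and 0.47 with equal weight.

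Between Tbx6-positive and other cells, 9 to 16 members passed under the alternatives, against 25.9% to 45.1% of all genes. Leaving out each library in turn gave 12 to 16, against 27.4% to 45.1% of all genes. With no replicate block, so that libraries were not paired, 9 passed (31.5% of all genes), and Aldoa, Pgk1, Pkm and Ldhb did not. Ldhb was also lost under DESeq2, without TMM factors and without any single library other than 0 ng/ml. For Cdh1-only against Cdh2-only cells, leaving out each library in turn gave 8 to 16, against 33.7% to 58.0% of all genes. The fit with no replicate block gave 5, against 23.2%. Aldoa, Pgk1 and Pgam1 were lost when any single FGF2 library was left out, and Eno1 without 0.75 or 3 ng/ml. Fewer libraries in the fit leave fewer degrees of freedom; the cause of the other changes was not tested. No member changed sign in a call, and of 600 single gene differences under all alternatives 546 kept their side of the threshold, 24 gained and 30 lost it. Depth limits Eno2, Pdk2, Pdk4, Pfkfb2 and Pfkfb4, which stayed under 10 CPM.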
